A study of Drosophila melanogaster with 3 samples.

Results

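Sh, Shab, Shaw, Shal, cac, slo, eag and sei are 8 Drosophila genes for the pore-forming subunits of voltage-gated ion channels. They were chosen by name in the Ensembl BDGP6 gene models, where all 8 were found among 13945 protein-coding genes on chromosome arms 2L, 2R, 3L, 3R, 4 and X. Chromatin immunoprecipitation and sequencing had mapped BtbVII, a protein with a BTB domain, in 3 biological replicates of whole embryos, males and females together, collected from 0 to 24 h of development. Every library came from the same transgenic line, strain BtbVII-GFP, which stably expresses BtbVII with GFP (eGFP in the library descriptions) fused to its C terminus, and an antibody against GFP was used for the precipitation. The replicates form 1 group with no control group, so no difference between conditions could be tested. In whole embryos a region bound in a few neurons and one bound weakly in many cells cannot be told apart, and the sources used here do not give the number of copies of BtbVII in the line.

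Voltage-gated potassium channels open when a neuron or muscle fibre depolarizes and let potassium leave the cell, which ends the action potential and sets how fast the cell can fire again. Sh (Kv1) and Shal (Kv4) carry fast, inactivating currents, Shab (Kv2) and Shaw (Kv3) carry delayed or sustained ones, and eag and sei belong to the ether-à-go-go family, in which sei is the fly relative of the human ERG channel. slo encodes the large-conductance potassium channel that is opened by calcium together with voltage, and cac encodes the pore of the presynaptic calcium channel that triggers transmitter release. Several of these genes use alternative promoters or alternative splicing; the neuronal and muscle promoters of slo are a well-studied example.

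Of the 8 genes, 5 held 1 strong peak each, namely Sh, Shab, Shaw, Shal and sei, and cac, slo and eag held none. A strong peak is a region of the optimal set, the 5219 regions that passed the authors' irreproducible discovery rate (IDR) threshold, whose summit lay in the gene or within 1000 bp of it. The optimal set equals the regions ranked 1 to 5219 by signal value in the pooled list of 30000 regions, and the other pooled regions are called candidates of lower signal. The strongest summit with 50 bases on either side is shown for 6 genes, and the sei summit is described below without its sequence. Of the sequences shown, the first 4 are strong peaks and the last 2 are the best candidates of genes without one. They are the plus strand of Release 6, 5′ to 3′, at chrX:18004410-18004510 for Sh, chr3L:2913838-2913938 for Shab, chr2L:3719695-3719795 for Shaw, chr3L:19575842-19575942 for Shal, chr3R:24667764-24667864 for slo and chrX:14955399-14955499 for eag. Capitals mark any of the words searched.
Sh: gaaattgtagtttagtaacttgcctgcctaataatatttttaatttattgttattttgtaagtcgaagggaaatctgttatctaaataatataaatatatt
Shab: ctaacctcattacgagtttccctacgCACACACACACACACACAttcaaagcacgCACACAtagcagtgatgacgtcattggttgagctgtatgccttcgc
Shaw: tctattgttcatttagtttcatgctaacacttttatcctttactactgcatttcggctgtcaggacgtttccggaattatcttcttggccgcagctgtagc
Shal: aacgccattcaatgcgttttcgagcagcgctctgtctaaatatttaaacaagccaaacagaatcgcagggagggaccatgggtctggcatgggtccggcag
slo: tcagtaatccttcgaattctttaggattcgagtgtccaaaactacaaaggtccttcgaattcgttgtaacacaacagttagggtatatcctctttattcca
eag: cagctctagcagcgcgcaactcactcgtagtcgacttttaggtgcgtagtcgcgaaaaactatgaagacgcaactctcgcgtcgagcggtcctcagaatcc

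The windows differed in base composition. Their GC content was 21.8% at Sh, 48.5% at Shab, 41.6% at Shaw, 51.5% at Shal, 37.6% at slo and 54.5% at eag, against 36.4% ± 10.1 (SD, n = 5219) over all strong peaks. The Sh summit was AT-rich (93.2% of strong peaks had a higher GC content), and those of Shal and eag were GC-rich (7.86% and 4.35% had a higher one). The 6 words searched on both strands were the GAGA repeat GAGAGA, the CA repeat CACACA, the A tract AAAAAAAA, the core TATCGATA of the DNA replication-related element, the promoter word GGTCACAC known as motif 1, and CAGGTA, which begins the site of the pioneer factor Zelda. None of them contains another. The sei summit, whose sequence is not printed, had a GC content of 32.7%. Of the 7 windows, only that of Shab held one of the words, a run of CACACA copies and a further copy beside it. Among all strong peaks, CACACA was in 8.58%, GAGAGA in 5.94%, AAAAAAAA in 6.82%, TATCGATA in 0.862%, GGTCACAC in 0.556% and CAGGTA in 2.03%, and 22.5% held at least 1 of the 6 words. A window without a word says only that these letters are not within 50 bp of the summit.

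The share of 5 genes in 8 with a strong peak (62.5%) stands beside 29.1% of all protein-coding genes under the same rule. Its exact Clopper-Pearson 95% interval, 24.5 to 91.5, covers counting error only. The interval treats the 8 genes as independent random draws, which a list chosen by name is not. The channel genes are long, from 5.6 kb for sei to 138.9 kb for Sh, against a median of 2.2 kb. Among the 3152 protein-coding genes at least as long as sei the share was 53.0%, so the count of 5 is near that background. Counted by length, the 8 genes with their flanks held 1.22 strong peaks per 100 kb, against 4.69 over those 3152 genes and 5.42 over all protein-coding genes, where a summit in overlapping genes counts for each. Candidates of any signal numbered 57 in 7 of the 8 genes, and 61.6% of all protein-coding genes held at least 1. That came to 13.9 candidates per 100 kb in the channel genes and 26.0 over genes at least as long as sei. Their median signal was 73.0, against 86.2 over all 30000 pooled regions. None of these differences was tested. The densities are not matched for length: of the 3152 genes, 279 were at least as long as cac (53.8 kb). Beside genes of like length, compared below, Sh, Shaw, Shal and sei had candidate counts at or above the median. Shab, eag, slo and cac were below it.

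**Figure D1:**
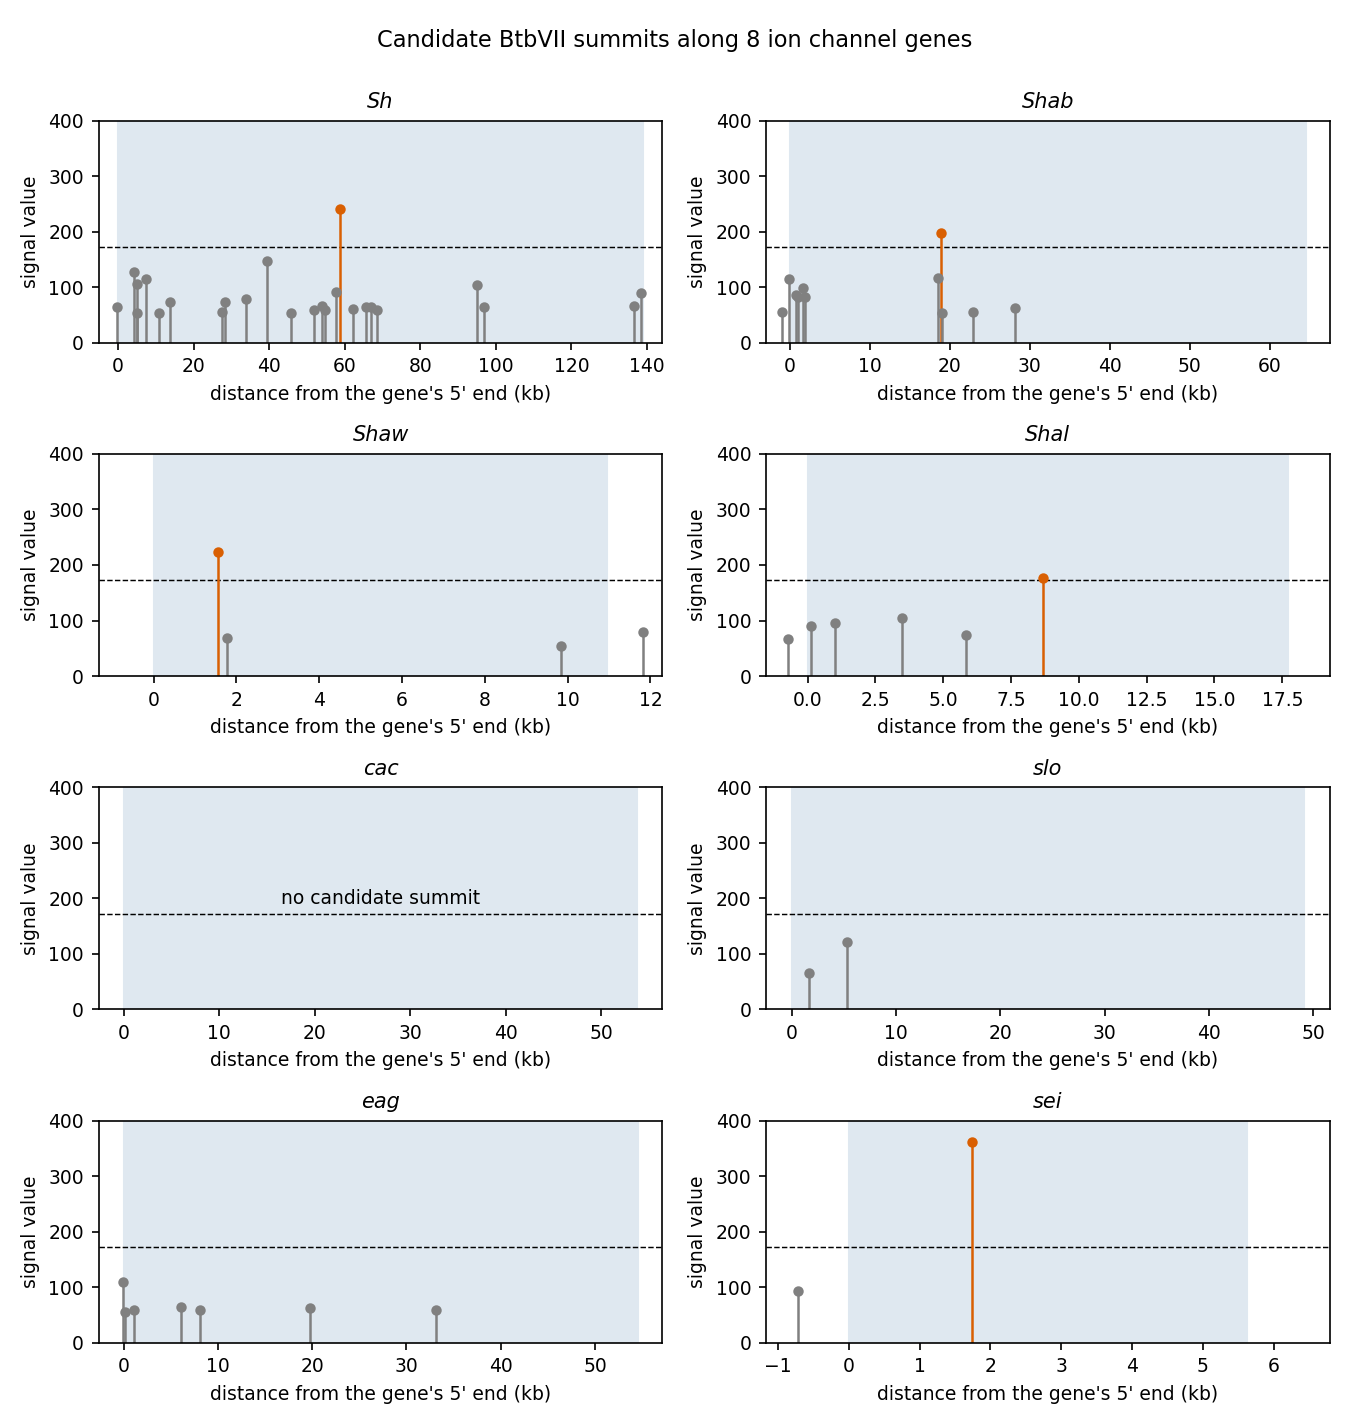
Each panel plots the candidate summits of 1 gene, with distance from the gene's 5′ end (kb) on the horizontal axis and the signal value in the pooled list on the vertical axis. The shaded span is the gene, orange marks strong peaks, grey marks candidates of lower signal, and the dashed line is the lowest signal of a strong peak (172.4). The 5 orange summits are 1 each in Sh, Shab, Shaw, Shal and sei, and cac has no summit.

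Of the 5 strong peaks, only that of sei was in the upper 2609 of the optimal set by signal. Their signal values were 360.8 at sei, 241.2 at Sh, 224.1 at Shaw, 196.6 at Shab and 177.0 at Shal. The median over all strong peaks was 258.0, so that only the sei peak lay above it, and 1431 strong peaks had a higher signal than the sei peak. Shal was nearest the lower end of the set, just above its lowest signal of 172.4. The highest value that fell short was the second candidate of Sh, at 147.3. Support by replicates was uneven. A replicate supported a peak when the summit lay in one of that replicate's 5219 regions of highest signal. Every replicate supported 2 of the 5 peaks (sei and Sh), exactly 2 replicates supported another 2 (Shaw and Shal), and 1 replicate supported 1 (Shab). Of all strong peaks, 58.9% were supported by every replicate.

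The sei gene (FBgn0003353, plus strand of 2R, 24047411 to 24053035) encodes the ERG-type potassium channel whose loss makes flies seize at high temperature. Its peak (chr2R:24048926-24049375) ranked 1432 in the pooled list. In the replicates the region holding its summit ranked 2041, 1321 and 1826, with signal values of 118.9, 159.8 and 68.4 on the separate scales of replicates 1, 2 and 3. These were the closest ranks of the 5 strong peaks, with the highest 1.55 times the lowest. The summit lay 52 bp upstream of the internal start site that 2 of the 3 annotated sei transcripts use, and in an intron of the transcript that starts 1.79 kb farther upstream. It was the only strong peak within 1000 bp of any of the 22 start sites of the 8 genes. So 1 of 8 genes had a strong peak near a start site, beside 22.4% of all protein-coding genes. The second sei candidate, 711 bp upstream of the gene with a signal of 93.2, lay inside the neighbouring gene tsr, which encodes the actin-severing protein cofilin, and was 105 bp from a tsr start site. A stronger peak of the optimal set (signal 666.7, rank 427) lay 2061 bp outside the sei gene, with its nearest start site at tsr, 1455 bp away.

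Sh (FBgn0003380, minus strand of X, 17924307 to 18063247), the first potassium channel gene to be cloned, had the most candidates. Its 25 summits ranged in signal from 52.9 to 241.2, and 1 was strong. That peak (chrX:18004235-18004684, the AT-rich window shown above) had a pooled rank of 2954, and ranks of 3136, 4239 and 2397 in replicates 1, 2 and 3, with signal values of 94.4, 83.9 and 59.6. All of these ranks lay within the top 5219. The summit was deep in the gene, 58.79 kb from its 5′ end and 7937 bp downstream of the nearest Sh start site, in an intron of the 10 transcripts that span it. The nearest start site of any gene was 3146 bp away, at CG12672, a gene nested within Sh. The second Sh candidate, at 147.3, lay 20 bp from the start site of another nested gene, CG6867, and ranked in the top 5219 of replicate 1 alone. Next came a candidate at 127.7, 4296 bp downstream of the first Sh start site, which had a region in every replicate list at ranks from 7853 to 11631. Of the 8 Sh start sites, 3 had a candidate within 1000 bp, and none of those candidates exceeded a signal of 63.9.

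Shab (FBgn0262593, plus strand of 3L, 2895017 to 2959579) encodes the main delayed rectifier channel, and its strong peak was the least even between replicates. The peak (chr3L:2913663-2914112, the window with the CACACA run) ranked 4215 in the pooled list. The region holding its summit ranked 5597 in replicate 1 and 8565 in replicate 2, both outside the top 5219, but 1145 in replicate 3. The signal values there were 67.8, 55.6 and 85.3, and the highest rank was 7.48 times the lowest. The summit lay 17145 bp downstream of the nearest Shab start site, in an intron of all 10 transcripts. The nearest start site of any gene, 2766 bp away, was that of CG9970, which is nested within Shab. A further pair of pooled summits with signals of 116.3 and 53.0 lay close to it, at 16790 and 17345 bp downstream of the same Shab start site. The sources used here do not give how reads on such a CA run were placed, and its part in the uneven ranks was not tested. Around the Shab promoters the pattern was different: all 3 start sites had a candidate within 500 bp, none of them strong. The best of these, 106 bp upstream of the first start site with a signal of 115.4 (rank 9725), was the gene's best region in replicate 1, at rank 4516.

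Shaw (FBgn0003386, plus strand of 2L, 3718185 to 3729145) had its strong peak (chr2L:3719520-3719969) 1560 bp downstream of the start site that 4 of its 5 transcripts use, in an intron of those 4. Its pooled rank was 3375, and its ranks were 4705, 3038 and 6304 in replicates 1, 2 and 3, with signal values of 75.0, 101.5 and 36.9. Replicate 3 was the one that left it outside the top 5219. Neither Shaw start site had a candidate within 1000 bp. The other Shaw summits had signals of 80.1, 69.2 and 53.4. The first of these lay 846 bp past the 3′ end of Shaw and 475 bp from a start site of CG10019, and the summit next beyond the 1000 bp limit, at 1110 bp, had a signal of 93.4.

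Shal (FBgn0005564, minus strand of 3L, 19566851 to 19584568) gave a similar picture at a lower signal. Its strong peak (chr3L:19575667-19576116) was placed at rank 4988 when pooled and at 4287, 4951 and 9495 in replicates 1, 2 and 3, with signal values of 78.9, 77.1 and 29.8. Replicate 3 again left it out of the top 5219. The summit lay 8676 bp downstream of the only Shal start site, in an intron of all 3 transcripts. The remaining 5 candidates ran from 66.8 to 104.6, among them one in the 5′ UTR, 129 bp downstream of the start site, with a signal of 90.8. Without replicate 3, the peaks of sei, Sh, Shaw and Shal were supported by both other replicates; without replicate 1 or without replicate 2, only those of sei and Sh were.

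**Figure D2:**
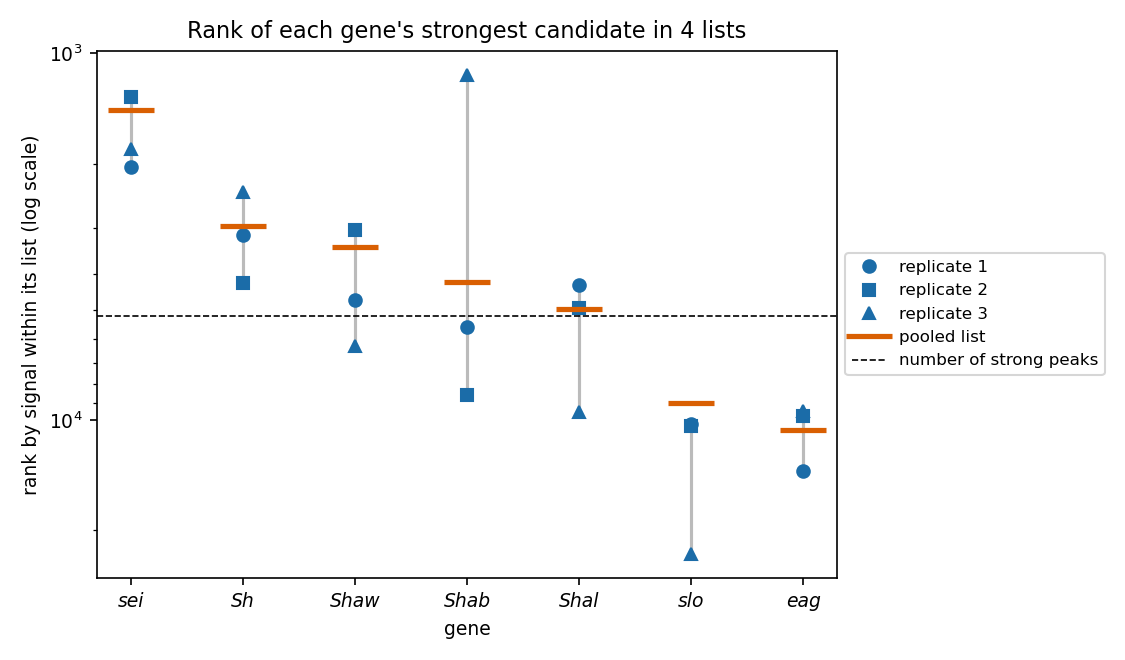
The rank of the region holding each gene's strongest pooled summit is plotted on an inverted log axis, with orange bars for the pooled list and blue circles, squares and triangles for replicates 1, 2 and 3. The grey line joins the lowest and highest replicate rank, and the dashed line is at 5219. All 3 replicates of sei and Sh lie above the line, Shab spans it from 1145 to 8565, and slo and eag lie below it in every list.

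The BK channel gene slo (FBgn0003429, plus strand of 3R, 24662491 to 24711595) had 2 candidates in 49.1 kb. Its strongest (chr3R:24667589-24668038), with a signal of 121.6 and rank 8992, lay 332 bp upstream of the start site that 15 of its 23 transcripts use. In the replicates that region ranked 10284, 10421 and 23185, with signal values of 46.4, 49.6 and 17.9. The other candidate, at 65.6, lay 1606 bp downstream of the first start site, which 8 transcripts use. The replicate lists held more regions in slo than the pooled list did, 4, 7 and 6 in replicates 1, 2 and 3. The best of them in replicate 3 (rank 9336) lay 2549 bp downstream of a start site and held no pooled summit.

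eag (FBgn0000535, plus strand of X, 14955477 to 15009989), the founding gene of the ether-à-go-go family, had 7 candidates and no strong peak. Its best candidate (chrX:14955224-14955673) lay 28 bp upstream of the single start site from which all 7 transcripts begin, with a signal of 108.7 and rank 10658. The region ranked 13787, 9754 and 9465 in replicates 1, 2 and 3, with signal values of 38.2, 51.6 and 29.8, so every replicate list placed a region at the eag promoter and none placed it in its top 5219. In replicate 1 another eag region ranked ahead of it, at 13025 with a signal of 39.7, which lay 46121 bp downstream of the start site and held no pooled summit. The other 6 candidates had signals from 55.8 to 64.2. Of these 6 summits, 2 lay in no region of any replicate list.

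The calcium channel gene cac (FBgn0263111, minus strand of X, 11931280 to 11985087) had no candidate summit in its 53.8 kb or within 1000 bp, although its 3 start sites serve 18 annotated transcripts. The nearest pooled summit lay 5826 bp outside the gene and the nearest strong peak 10117 bp outside it (signal 435.2, rank 1000), 589 bp from a start site of lncRNA:CR32660. From its start sites, the nearest pooled summits were 19327 bp or more away. The replicate lists were nearly empty as well. Replicate 1 had no region there, replicate 2 had 3 with a best rank of 25085, and replicate 3 had 1 at rank 27047. The replicate 2 region of best rank lay 569 bp downstream of a start site. Of 222 other protein-coding genes with 0.8 to 1.25 times the length of cac, 7 (3.15%) also lacked any candidate, and their median number was 11.5.

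**Figure D3:**
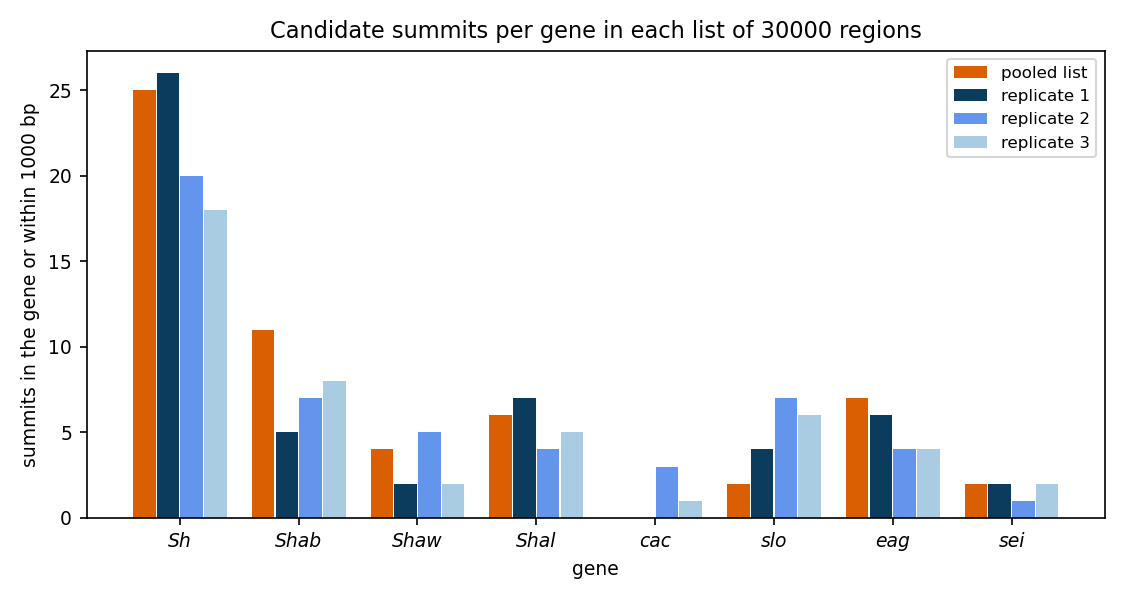
Bars give the number of summits in each gene or within 1000 bp of it, with orange for the pooled list and blue shades for replicates 1, 2 and 3, each list holding 30000 regions over the genome. Sh has 18 to 26 in every list, and cac has 0 in both the pooled list and replicate 1, 3 in replicate 2 and 1 in replicate 3.

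Set against genes of like length in the same way, the other 7 genes differed in their place. Sh had 25 candidates where the median of 59 genes was 23.0, Shab 11 where that of 167 was 13.0, Shaw 4 where that of 687 was 3.0, Shal 6 where that of 514 was 5.0, and sei 2 where that of 1215 was 2.0. eag had 7 candidates where the median of 217 genes was 12.0, and slo 2 where that of 245 was 11.0. As few candidates as slo, or fewer, were found in 10.6% of its class. By the signal of the best candidate, sei was exceeded by 14.2% of genes of like length, Shaw by 38.7%, Sh by 52.5%, Shal by 54.5%, Shab by 57.5%, slo by 73.5% and eag by 76.5%. Among genes of like length, strong peaks were present in 63.1% for eag, 63.5% for cac and 63.7% for slo, the genes without one. For the genes with one the shares were 72.9% for Sh, 62.9% for Shab, 51.5% for Shaw, 56.6% for Shal and 38.4% for sei.

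**Figure D4:**
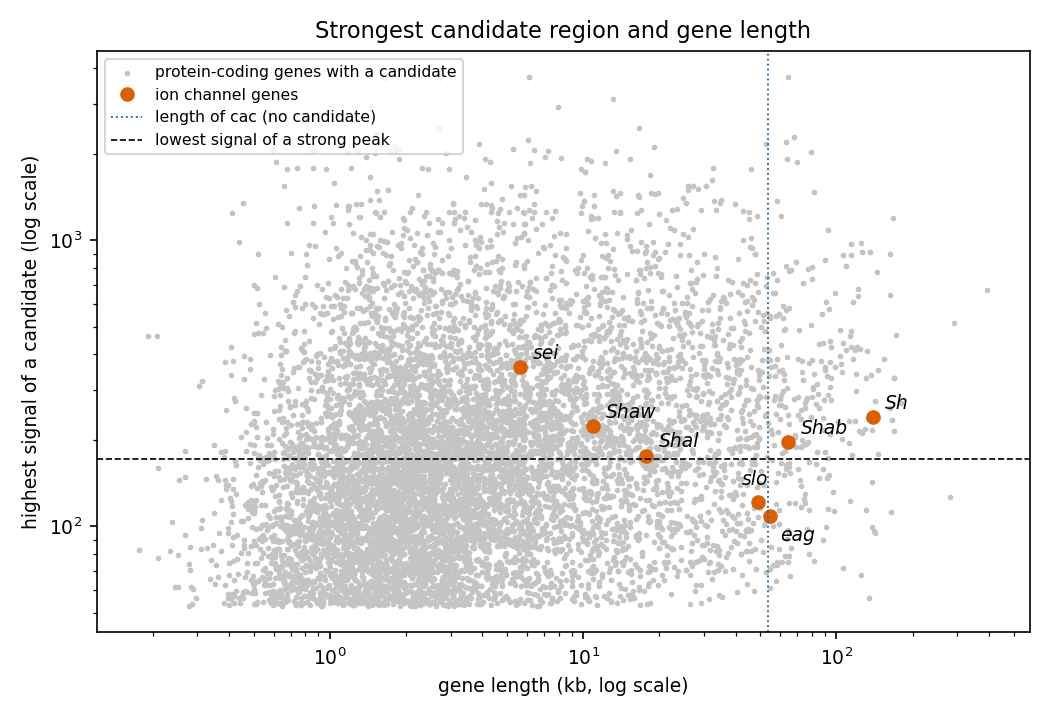
Every protein-coding gene with a candidate is a grey point, with gene length (kb) and the highest signal of its candidates on log axes, and the 7 channel genes with a candidate are orange. The dashed line is the lowest signal of a strong peak (172.4), the dotted line is the length of cac, and slo (121.6) and eag (108.7) lie below the dashed line.

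Along the genes, candidates lay mostly toward the 5′ end. Of the 50 summits inside the 8 gene bodies, 44 (88.0%) were nearer to the 5′ end than to the 3′ end of the gene, against 65.4% of 18223 summits in the bodies of protein-coding genes at least as long as sei, where overlapping genes count a summit more than once. This difference was not tested, the background is not matched for length, and neighbouring summits are not independent. Sh holds nearly as many summits as the others together; without it, 24 of 26 (92.3%) were. In Shab all 9 were, the farthest at 28.2 kb of 64.6 kb, and in slo both were, at most 5.3 kb from the start of a 49.1 kb gene. Sh had 20 nearer to its 5′ end and 4 nearer to its 3′ end, the farthest at 138.6 kb of 138.9 kb. By annotation, 44 of the 57 candidates were intronic, 6 were in the upstream flank, 1 was in the downstream flank, 3 were in 5′ UTRs, 3 were in 3′ UTRs and 0 were in coding exons. Of the 22 start sites, 8 had a candidate within 500 bp and 11 within 1000 bp, spread over 6 genes. These counts of locations and of start sites describe the 8 genes only, as no share over all candidates or all genes stands beside them. The strong peaks of Sh, Shab, Shaw and Shal were in introns, more than 1000 bp from all of these start sites.

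All 5 strong peaks had a region at their summit in every replicate list. Of the 57 candidates together, 22 had one in all 3 lists, 13 in 2, 17 in 1 and 5 in none. Summits that lie close together can share 1 replicate region, so these counts are not of independent sites. No share over all strong peaks or all pooled regions stands beside them, so they do not set the channel genes apart. The limit of 1000 bp around each gene decided little: the summits just inside it were at 956 bp (Shab, signal 55.4) and 846 bp (Shaw, 80.1), those just outside at 1110 bp (Shaw, 93.4) and 1411 bp (sei, 60.3), and none of them was strong.

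Among 30 other channel and accessory subunit genes, 11 (36.7%) held a strong peak. The share was 29.1% over all protein-coding genes and 53.0% over those at least as long as sei. The list is of unequal gene lengths, from 2.0 to 94.8 kb, and no test was made. The 11 were 5 of 12 other potassium channel genes, 2 of 5 sodium, calcium and leak channel genes and 4 of 13 accessory subunit genes. Within 1000 bp of their own start site, 6 of the 30 had a strong peak, beside 22.4% of all protein-coding genes. The 5 with the highest signal were KCNQ, a channel of the M-current family (943.5, in an intron, 794 bp from a start site of mlt), NaCP60E, a voltage-gated cation channel (894.9, 55 bp from a start site of RpL41 and 127 bp from its own), Ca-alpha1T, a low-voltage-activated calcium channel (439.7, 904 bp upstream of its start site), Irk1, an inward rectifier (390.0, in an intron where CG46310 also lies), and Hk, the beta subunit that binds the Sh channel (380.5, past its 3′ end, inside CG2961). KCNQ held 4 strong peaks and Irk1, at 17.3 kb about as long as Shal, held 7. The overlapping gene CG46310 also held 7 under the same rule, so the Irk1 count is not of Irk1 alone. All 5 of these channel and subunit genes had a higher signal than any of the 8 genes above. The sodium channel gene para had 7 candidates and no strong peak, with a best signal of 114.1. Ca-alpha1D, the other high-voltage-activated calcium channel gene beside cac, had no candidate, and neither had stol, whose product is an auxiliary calcium channel subunit. The remaining genes for calcium channels or their subunits did have candidates: 10 in Ca-alpha1T, 12 in Ca-beta (1 of them strong, signal 208.1) and 1 in stj. Of all 30 genes, 23 held a candidate, beside 61.6% of all protein-coding genes. Irk2, Task6, Teh3, Teh4 and unc79 also had none, so absence was not confined to genes for calcium channels or their subunits.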

How the data were processed

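The authors deposited region lists in narrowPeak layout on dm6, whose seventh column holds the signal value their peak caller gave each region. Per the deposited README text, each replicate list and the pooled list came from alignments of the replicates and 1 further alignment, and the optimal set was derived from those 4 lists by IDR. The sources used here do not give the aligner, peak caller, versions or IDR threshold. The dm3 lists were not used. Signal scales differ between lists, so replicates were compared by rank. The depth of the libraries is unknown. Nothing says whether the replicates share a collection of embryos.

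Summits were placed in Ensembl release 115 gene models (BDGP6.54), on the same assembly as dm6, with Python 3.11.15, pandas 2.3.3, numpy 2.4.6 and scipy 1.17.1. Sequence is from the RefSeq copy of Release 6. Counting of summits in gene windows and the lookup of replicate ranks were tested on simulated data with known answers. The placing of summits by start site and annotation was not. Of the other channel genes, 26 matched by name and 4 (Teh1 to Teh4) when case was ignored. The 8 genes and the other list were chosen with earlier results of these data known. Named genes are the 8 members, the 5 other channel genes of highest signal, and genes at or nearer to a strong summit. CG6867, CG10019, CG46310, mlt, RpL41, CG2961, tsr, lncRNA:CR32660, para, Ca-alpha1D, Ca-beta, stj and stol were named after their values were seen. So were Elk, Ih, Slob, Irk2, Task6, Teh3, Teh4 and unc79. With 1 group, no test was made. Alternatives changed the window, the signal threshold, how a peak is placed and which replicates must support it.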

Additional observations from a re-analysis of the deposited data

How the results depend on the processing

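The number of channel genes with a strong peak and the number of such peaks were 5 with windows of 0, 500 and 2000 bp and when any overlap of the region counted. Both were 1 (sei) when the optimal set was limited to its upper 2609 regions by signal, 2 when every replicate had to support a peak, and from 2 to 4 when the 2 replicates left after omitting one had to. The smaller sets hold fewer peaks by construction. The number of genes with a strong peak near a start site was 2 with a window of 2000 bp, which takes in the Shaw peak, and 1 under the other settings, of which a window of 0 bp was not run for it. The number of peaks supported by every replicate was 2 with windows of 0 and 2000 bp and when overlap of regions by at least 1 bp counted as support, was 5 when any region of a replicate list counted, and ran from 2 to 4 with 1 replicate omitted. Of 72 counts for single genes under these settings, 58 kept their value and 14 moved. For the other channel genes, whose settings were chosen after seeing the data, the count of 11 was 9 with no window, 11 with 2000 bp and 7 among the upper 2609. Taking longer genes as the background leaves the members' counts as they are. The unknown depth limits what an absent candidate means: cac had no region in the pooled list, which holds a set number of regions, and a weaker signal would not be listed. No paired analysis was possible because there is 1 group.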
